A study of Mus musculus with 3 samples.

Results

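The 48 miRNA probes described here carried names from miR-1000 upwards, lay outside the block miR-6896 to miR-7094, and had a raw spot intensity above 500 on each of 3 mouse plasma arrays. They were 48 of 1900 miRNA probes on the chip and 48 of the 103 that passed this brightness limit on all arrays. Another 8 numbers (miR-1224, miR-1982, miR-2861, miR-3960, miR-5100, miR-5126, miR-6239 and miR-8110) were left out by rule. Of these, miR-1224, miR-1982, miR-5100, miR-6239 and miR-8110 had been set apart as higher after exercise in these data. The members were chosen by their raw intensity, so that they were bright is no finding. Of 653 probes in the number range, 13 passed the limit on 1 or 2 arrays only and 592 on none. Just inside the limit, the lowest raw values were 521 for miR-1894-3p, 538 for miR-3067-3p and 568 for miR-7655-5p, and just outside it 493 for miR-5119, 489 for miR-6391 and 472 for miR-8099.

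The arrays held plasma of male C57BL/6 mice, a common inbred strain, aged 8 weeks. The groups were mice after resistance exercise, mice after aerobic exercise, and control mice kept in normal cages. Blood of the exercised mice was drawn 3 h after an acute bout, all mice having been fasted overnight, and plasma of 3 mice per group was mixed into 1 pool on 1 array. Replicates and tests were therefore lacking, and the errors below cover neither mice, pools nor arrays. The exercise regimens were not given in any source read here. The chip was described as a human one although its miRNA probes carried mouse names, and the extraction text spoke of cells where the other labels named plasma.

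A miRNA is a short RNA that guides a repressor complex to messenger RNAs, mainly through its seed, which is bases 2 to 8. miRNAs are numbered in the order in which they were registered, and the high numbers come largely from sequencing surveys, many without a studied function. In plasma, miRNAs are carried in vesicles and protein complexes and come from blood cells and from many organs.

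Mature sequences from RefSeq (build GRCm38.p6) matched 44 of the 48 members by name. The 4 without a match were miR-1893, miR-5112, miR-7235-5p and miR-7666-3p. Among the 10 members with the highest mean raw intensity, 7 had the following sequences, shown because they are among the brightest members. Capitals mark the seed.
miR-6538: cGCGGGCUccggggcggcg
miR-2137: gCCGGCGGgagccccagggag
miR-3077-5p: cUGCGGACgggugggcgggcaggcc
miR-3547-5p: gUGGGAAGagggguggggcccggga
miR-5130: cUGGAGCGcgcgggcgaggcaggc
miR-7671-3p: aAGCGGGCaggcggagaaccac
miR-7672-5p: cGGUGGACuugacagcgggcga
The others among the 10 were miR-3473b and miR-3473e, printed with their relatives below, and miR-1893.

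All 7 are rich in G and C. Over the 44 matched members the GC content of the mature miRNA ran from 45.0% to 94.7% with a median of 68.7%. The 521 matched probes of the same number range at or under the brightness limit had a median of 52.4%. The 44 matched other bright probes, that is those above raw intensity 500 on all arrays, had a median of 65.3%. Base content thus set bright probes apart from dim ones, more than members from other bright probes. G alone made up a median of 49% of the bases in members and 50% in other bright probes, against 27.3% in dim probes of the same number range. A run GGG stood in 36 of 44 members (81.8%) and in 88.6% of the other bright probes, against 30.3% of all 1614 matched miRNAs. The longer run GGGG, which contains GGG, stood in 40.9%, 63.6% and 11.3% in the same order. Both runs were read on the miRNA strand only. Median length was 22 bases in members and in all matched miRNAs.

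The second set of sequences shares a run of 6 bases, GAGAUG, set in capitals. It is shown because the median difference of these 6 members from control, described below, lay above that of the other members in both exercise pools.
miR-3473a: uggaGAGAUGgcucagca
miR-3473b: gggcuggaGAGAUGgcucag
miR-3473e: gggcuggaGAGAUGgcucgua
miR-3473f: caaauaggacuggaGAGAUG
miR-5128: caauuggggcuggcGAGAUGgcu
miR-7667-3p: agggacugcaGAGAUGgcacug
miR-3473b and miR-3473e share 18 bases in a row, miR-3473a shares 16 with miR-3473b, and miR-3473f shares 11 with miR-3473b. miR-5128 shares 9 bases with each of miR-3473a, miR-3473b and miR-3473e, and miR-7667-3p shares 9 with each of these too. The start of the mouse B2 repeat, an abundant short interspersed element, carries a stretch very like that of miR-3473b. GAGAUG stood in 6 of 44 matched members and in 18 of all 1614 matched miRNAs (1.12%). Whether such spots bind the same RNA was not tested.

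Seeds were shared by 2 pairs of members. miR-3473b and miR-3473e had GGCUGGA, and miR-8113 and miR-8119 had AGGAGAG. The last set shown is that pair, the 2 members cut from one hairpin (miR-3102), and the members whose differences passed the spot-scatter limit defined below in every setting. Capitals mark the seed.
miR-8113: cAGGAGAGucaggggcaaguag
miR-8119: gAGGAGAGggagcuaggguc
miR-3102-5p: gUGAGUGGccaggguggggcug
miR-3102-5p.2-5p: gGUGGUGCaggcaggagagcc
miR-1195: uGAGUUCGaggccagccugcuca
miR-7238-5p: aUGCGGAUgggacgcggc
miR-7653-5p: uAAGGGGCggacagacagacgg
miR-6240: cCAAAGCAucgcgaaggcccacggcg
miR-1195 resembles part of the mouse B1 repeat, a relative of the primate Alu element.

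The members' hairpins lay on 16 chromosomes. Of the 44 with a locus, 34 (77.3%) lay within the span of a protein-coding gene, against 79.5% of other bright miRNAs, 73.3% of dim ones of the same number range and 67.8% of all 1614 matched ones, and at least 25 were on that gene's strand. Whether they lie in exons or introns was not analysed here. miR-6538 (chr12:26414970-26414988, minus strand) lay in Rnf144a, a ubiquitin ligase gene, and miR-2137 (chrX:72992113-72992133, plus strand) in Zfp185. Others sat in genes of known function. miR-8119 (chr4:129557756-129557775, minus strand) lay in Lck, the kinase of T cell receptor signalling, and miR-8101 (chr11:102230103-102230124, minus strand) in Hdac5, a histone deacetylase gene. miR-5132-5p (chrX:74023571-74023591, minus strand) lay in Irak1, a kinase of interleukin-1 receptor signalling. miR-3473f (chr1:106546536-106546555, minus strand) lay in Bcl2, the apoptosis inhibitor, and miR-8113 (chr6:125234756-125234777, minus strand) in Cd27, a lymphocyte receptor gene.

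Of the same 44 members, 15 (34.1%) lay within 1000 bases of a listed start of a gene, against 18.2% of other bright miRNAs, 11.9% of dim ones of the same number range and 9.91% of all matched ones. miR-5130 (chr14:102982608-102982631, minus strand) stood 6 bases from the start of Kctd12, which encodes a partner of GABA-B receptors. miR-7238-5p (chr8:11635719-11635736, minus strand) stood 21 bases from that of Ankrd10, miR-8101 48 bases from that of Hdac5, and miR-7648-3p (chr15:90224392-90224412, plus strand) 81 bases from that of Alg10b. The table of starts is not complete, so these distances are upper limits.

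Red cell, platelet, liver and muscle miRNAs served to check the plasma label. All 11 passed the detection limit on all 3 arrays, but so did 20.1% of 174 printed spots without a probe on the resistance array, 4.02% on the aerobic and 78.7% on the control array. Of the 11 markers, 9 were brighter than the brightest such spot on every array. The others were miR-144-3p, at 118 in control plasma, and the muscle miRNA miR-1a-3p, at 104 in aerobic plasma. The raw intensities of the 3 red cell markers (miR-451a, miR-144-3p and miR-16-5p) summed to 6407 in resistance, 6870 in aerobic and 3638 in control plasma. miR-23a-3p, the reference used for red cell lysis, stood at 1214, 1258 and 869 in the same order. The 3 platelet and leukocyte markers summed to 1360, 1501 and 1121, and the 2 liver markers to 354, 477 and 315. Of these, miR-223-3p alone was dimmer in resistance (409) than in control plasma (422). The 2 muscle markers went the other way, summing to 359 in resistance, 259 in aerobic and 484 in control plasma. Of the 2, miR-1a-3p differed little between resistance (146) and control plasma (158). Red cell signal was thus higher and muscle signal lower in both exercise pools, and the part of these markers in the members' differences was not tested. The spots without a probe reached at most 134 on the resistance, 151 on the aerobic and 123 on the control array, below every member.

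The members carried 35.3% of the miRNA signal above background in resistance, 36.5% in aerobic and 38.5% in control plasma. The share was therefore lowest after resistance exercise and highest in caged mice, but by a few percentage points. A lower signal in plasma cannot be told apart as fewer source cells or as less RNA from each. Bright miRNAs of the 8 left-out numbers went the other way, with 29.5%, 28.7% and 27.8%. Some of these numbers were set apart as higher after exercise, so the choice itself favours this contrast. The bright miRNAs of the block miR-6896 to miR-7094 held 7.68%, 7.94% and 7.95%, and the 20 bright miRNAs with numbers under 1000 held 8.95%, 9.0% and 8.74%. A share is a ratio within 1 array, so it needs no scaling between arrays.

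**Figure D1:**
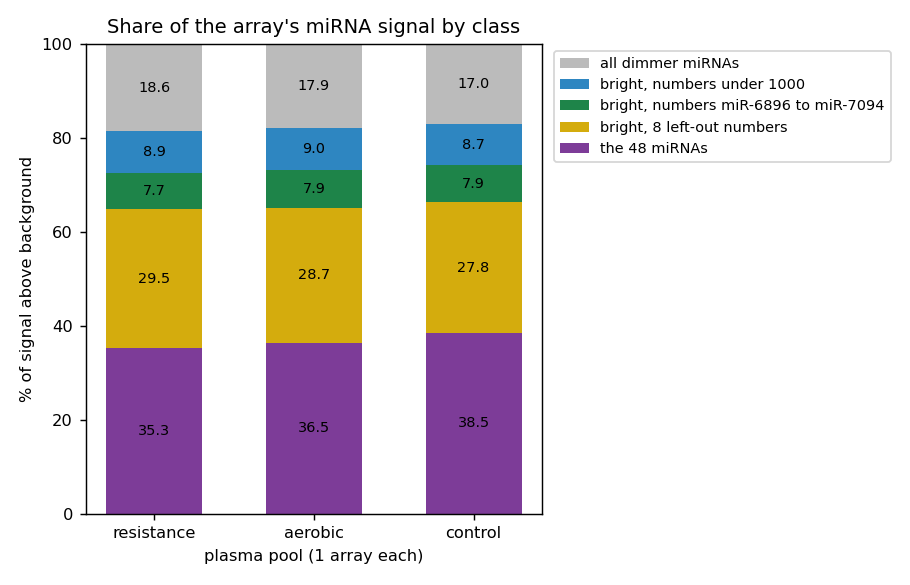
Stacked bars give the percentage of each array's miRNA signal above background (vertical axis, 0 to 100) in 5 classes of miRNA probe, for the resistance, aerobic and control pools, 1 array each and without error bars. The 48 miRNAs at the bottom take 35.3%, 36.5% and 38.5% in that order.

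The very brightest members took part in this. miR-6538 and miR-2137 together held 10.1% of the signal in resistance, 10.4% in aerobic and 11.8% in control plasma. Without these 2, the members held 25.3%, 26.1% and 26.7% in the same order. The 6 members with GAGAUG went the opposite way, at 6.21%, 6.37% and 5.52%, while the other 42 held 29.1%, 30.1% and 33.0%. Member by member, 30 of 48 had a lower share in the resistance than in the control pool. So did 531 of all 1336 miRNAs detected on both arrays and 26 of the 55 other bright ones. In the aerobic pool 25 of 48 members had a lower share than in the control pool, against 476 of all 1321 and 20 of 55 other bright ones.

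Raw intensity in the resistance pool ran from 521 to 24244 with a median of 1614. In the aerobic pool it ran from 613 to 32415 with a median of 2097, and in the control pool from 568 to 29577 with a median of 1658. The aerobic array was the brightest of the arrays for 42 of the 48 members and the resistance array the dimmest for 36. The brighter aerobic array was not particular to the members. Before scaling, 1279 of all 1321 miRNAs detected on both arrays were brighter on the aerobic than on the control array. On the resistance array 1243 of 1307 were dimmer than on the aerobic, and 620 of 1336 dimmer than on the control array. The spike-in spots, before scaling, also stood higher on the aerobic array, by a log2 difference of 0.13 against control, and by 0.04 on the resistance array. The order of the members hardly differed between arrays. As a description over the same 48 probes, Spearman's rho of raw intensity was 0.98 for resistance with control, 0.98 for aerobic with control and 0.99 for resistance with aerobic. Intensities of different probes also depend on the probe, so a brighter spot is not shown to mean more of that miRNA.

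**Figure D2:**
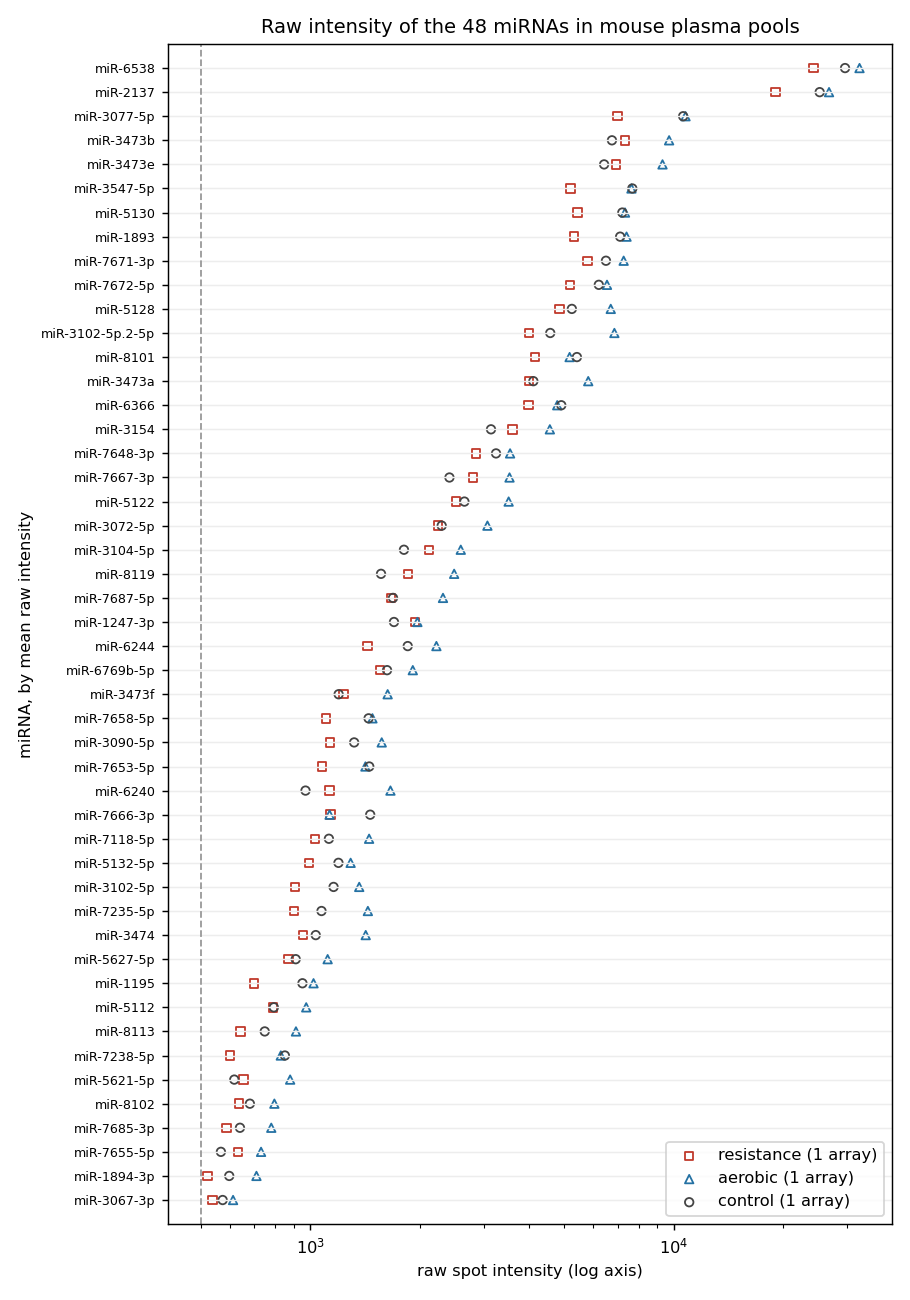
Each row is 1 of the 48 miRNAs, in order of mean raw intensity, with its raw spot intensity (log axis) on the resistance (square), aerobic (triangle) and control (circle) arrays. The dashed line marks the limit of 500, and the aerobic value is the highest for 42 members. Before scaling, 1279 of all 1321 miRNAs compared were also brighter on the aerobic than on the control array.

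Taken singly, miR-6538 had raw intensities of 24244 in resistance, 32415 in aerobic and 29577 in control plasma. miR-2137 had 19060, 26724 and 25186 in the same order. Both were dimmest in the resistance pool. miR-3077-5p had 6995 in resistance, 10769 in aerobic and 10609 in control plasma, with the same order of pools. miR-3547-5p had 5198, 7645 and 7688, with aerobic and control plasma nearly level. miR-5130 and miR-1893 followed this pattern, with 5425 and 5309 in resistance, 7340 and 7412 in aerobic, and 7216 and 7118 in control plasma. miR-7671-3p (5793, 7278 and 6506) and miR-7672-5p (5187, 6549 and 6218) differed less between pools. miR-7672-5p lies 238 bases from the start of Pde12, a gene for a mitochondrial phosphodiesterase.

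miR-3473b, reported in mouse macrophage and microglia inflammation, had a different order of pools. Its raw intensity was 7343 in resistance, 9705 in aerobic and 6758 in control plasma. miR-3473e had 6925, 9308 and 6430, and miR-3473a 3994, 5815 and 4108. miR-3473f was dimmer, at 1234 in resistance, 1632 in aerobic and 1197 in control plasma. Thus all 4 were brightest in the aerobic pool. miR-3473a alone of them was dimmer in resistance than in control plasma. The chip's other miR-3473 probes were not members, with 224, 270 and 233 for miR-3473c, 147, 168 and 142 for miR-3473d, and 227, 254 and 227 for miR-3473g.

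For differences between pools, raw intensities were background corrected and quantile normalized over the arrays, and are given as log2 differences, so that 1 means 2-fold. Spot scatter was taken from 2 spike-in probes with 8 spots each on every array, whose raw values ran from 11225 to 20894. Only miR-6538 and miR-2137 were that bright or brighter on any array, so the scatter of the other 46 members was not measured at their own level. Even of these, miR-2137 lay within the range on the resistance array alone, at 19060, and miR-6538 lay above it on every array. The pooled SD of the spike-in spots was 0.11. From it, 2 SD of a difference between 2 spots came to 0.32, the limit of spot scatter used below. Quantile normalization gives spots of the same rank the same value. Hence 6 of 48 members had a difference of exactly 0 in resistance minus control, 6 in aerobic minus control and 9 in resistance minus aerobic, miR-6538 and miR-2137 among them each time. For this reason differences with each array scaled by 1 factor, to its median detected miRNA, are given beside the quantile values. Scaled so, miR-6538 stood at -0.34 and miR-2137 at -0.46 in resistance minus control, past the limit on the lower side. They passed it in 3 and 4 of the 9 settings tried. In aerobic minus control they stood at -0.10 and -0.14, and in resistance minus aerobic at -0.24 and -0.31, within the limit.

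The first comparison set resistance exercise against caged control. Members lower in the resistance pool by more than spot scatter whatever the setting were miR-7238-5p, miR-1195, miR-3547-5p and miR-7653-5p. Each of the 4 passed spot scatter in all 9 settings tried. miR-7238-5p had raw intensities of 602 in resistance and 851 in control plasma, a log2 difference of -0.55 (-0.58 with median scaling). miR-1195 had 701 in resistance and 952 in control plasma, a difference of -0.44 (-0.52). For miR-3547-5p, at the levels given above, the difference was -0.39 (-0.62), and for miR-7653-5p, at 1079 against 1453, it was -0.33 (-0.50). All 4 were thus well under 2-fold lower.

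Another 3 members passed the limit on the lower side by quantile values but only in part of the settings. miR-3102-5p had 907 in resistance and 1159 in control plasma, a difference of -0.36. miR-6244 had 1437 and 1854, a difference of -0.35, and both passed in 7 of 9 settings. miR-7648-3p had 2855 in resistance and 3243 in control plasma, a difference of -0.34 that passed in 3. By quantile values miR-3077-5p stood within the limit at -0.22. With median scaling it was the lowest member at -0.66, and it passed in 6 of 9 settings. Also lower with median scaling were miR-1893 (-0.48), miR-5130 (-0.47), miR-8101 (-0.44) and miR-7666-3p (-0.43), each passing in 4 of 9 settings. On the higher side stood miR-3473b at 0.53, miR-3473e at 0.37 and miR-8119 at 0.33, the last with 1857 in resistance and 1565 in control plasma. With median scaling these were 0.07, 0.05 and 0.20, within spot scatter. miR-1247-3p and miR-3104-5p followed at 0.25 each, the second with raw values of 2123 in resistance, 2594 in aerobic and 1810 in control plasma.

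In counts, 3 of 48 members (6.25%) were higher and 7 of 48 (14.6%) lower than control by more than spot scatter. Over all 1336 miRNAs detected on both arrays the shares were 5.61% higher and 3.22% lower, and over the 55 other bright miRNAs 20.0% higher and 10.9% lower. The other bright miRNAs are the closer match in brightness, since the correction pulls differences of dim spots towards 0. They include 6 probes of the left-out numbers, 3 of them higher here, so part of the contrast may come from the choice. Of the 29 bright miRNAs of the block, 6.90% were higher and 17.2% lower. Of the 20 with numbers under 1000 these were 30% and 5%. With median scaling 0 members were higher and 16 (33.3%) lower, against 14.5% and 21.8% of other bright miRNAs and 4.49% and 4.64% of all. With spike-in scaling the members' counts were 0 and 16, against 14.5% and 18.2% of other bright ones and 4.72% and 4.34% of all. Without scaling they were 0 and 13 (27.1%), against 18.2% and 16.4% of other bright ones and 5.39% and 3.52% of all. By the authors' normalization they were 0 and 21 (43.8%), against 14.5% and 32.7% of other bright ones and 13.5% and 25.3% of all. The median difference of the members was -0.08, against -0.01 for all miRNAs and -0.03 for other bright ones. No member differed 2-fold, which 0.225% of all miRNAs did on the higher and 0.0749% on the lower side.

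The second comparison set aerobic exercise against caged control. miR-6240 stood highest and miR-7666-3p lowest among the members, and both passed spot scatter in all 9 settings. miR-6240 had raw intensities of 1662 in aerobic and 970 in control plasma, a log2 difference of 0.42 (0.57 with median scaling). miR-7666-3p had 1130 in aerobic and 1462 in control plasma, a difference of -0.69 (-0.61), or 1.62-fold lower. miR-8119 had 2487 in aerobic and 1565 in control plasma, a difference of 0.33 (0.45) that passed in 8 of 9 settings.

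miR-3102-5p.2-5p stood at 0.38 (0.36), with 6863 in aerobic and 4572 in control plasma. miR-3473e stood at 0.37 (0.31) and miR-3473b at 0.30 (0.30). On the lower side were miR-7238-5p at -0.41 (-0.26), miR-8101 at -0.37 (-0.30), miR-7653-5p at -0.37 (-0.26) and miR-7648-3p at -0.34 (-0.10). Their raw values were close to control, at 830 against 851, 5168 against 5413, 1418 against 1453, and 3545 against 3243. The sign of miR-7648-3p turned without scaling, to 0.13.

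Here 4 of 48 members (8.33%) were higher and 5 of 48 (10.4%) lower than control by more than spot scatter, against 3.79% and 2.04% of all 1321 miRNAs compared and 16.4% and 5.45% of other bright ones. With median scaling 4 were higher and 1 lower, against 25.5% and 5.45% of other bright miRNAs and 5.68% and 1.44% of all. With spike-in scaling 13 (27.1%) were higher and 1 lower, against 41.8% and 1.82% of other bright ones and 9.24% and 0.984% of all. Without scaling 19 (39.6%) were higher and 1 lower, against 60.0% and 0% of other bright ones and 18.6% and 0.681% of all. The larger counts of higher members were thus a smaller share than among other bright miRNAs. Those again include the 6 probes of left-out numbers, 3 of them higher by quantile values and 5 without scaling. Part of this gap may thus come from the choice. Without scaling, 51.7% of the 29 bright block miRNAs and 65% of the 20 with numbers under 1000 were higher. By the authors' normalization 1 was higher and 17 (35.4%) lower, against 7.27% and 18.2% of other bright ones and 13.4% and 18.8% of all. Which side held more members thus depended on the scaling. The members' median was -0.05 by quantile values, 0.04 with median scaling and 0.27 without scaling, where all miRNAs had a median of 0.20. That of other bright miRNAs was higher in each case, at 0.04, 0.14 and 0.37 in the same order. No member differed 2-fold, while 0% of all miRNAs did on the higher and 0.227% on the lower side.

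**Figure D3:**
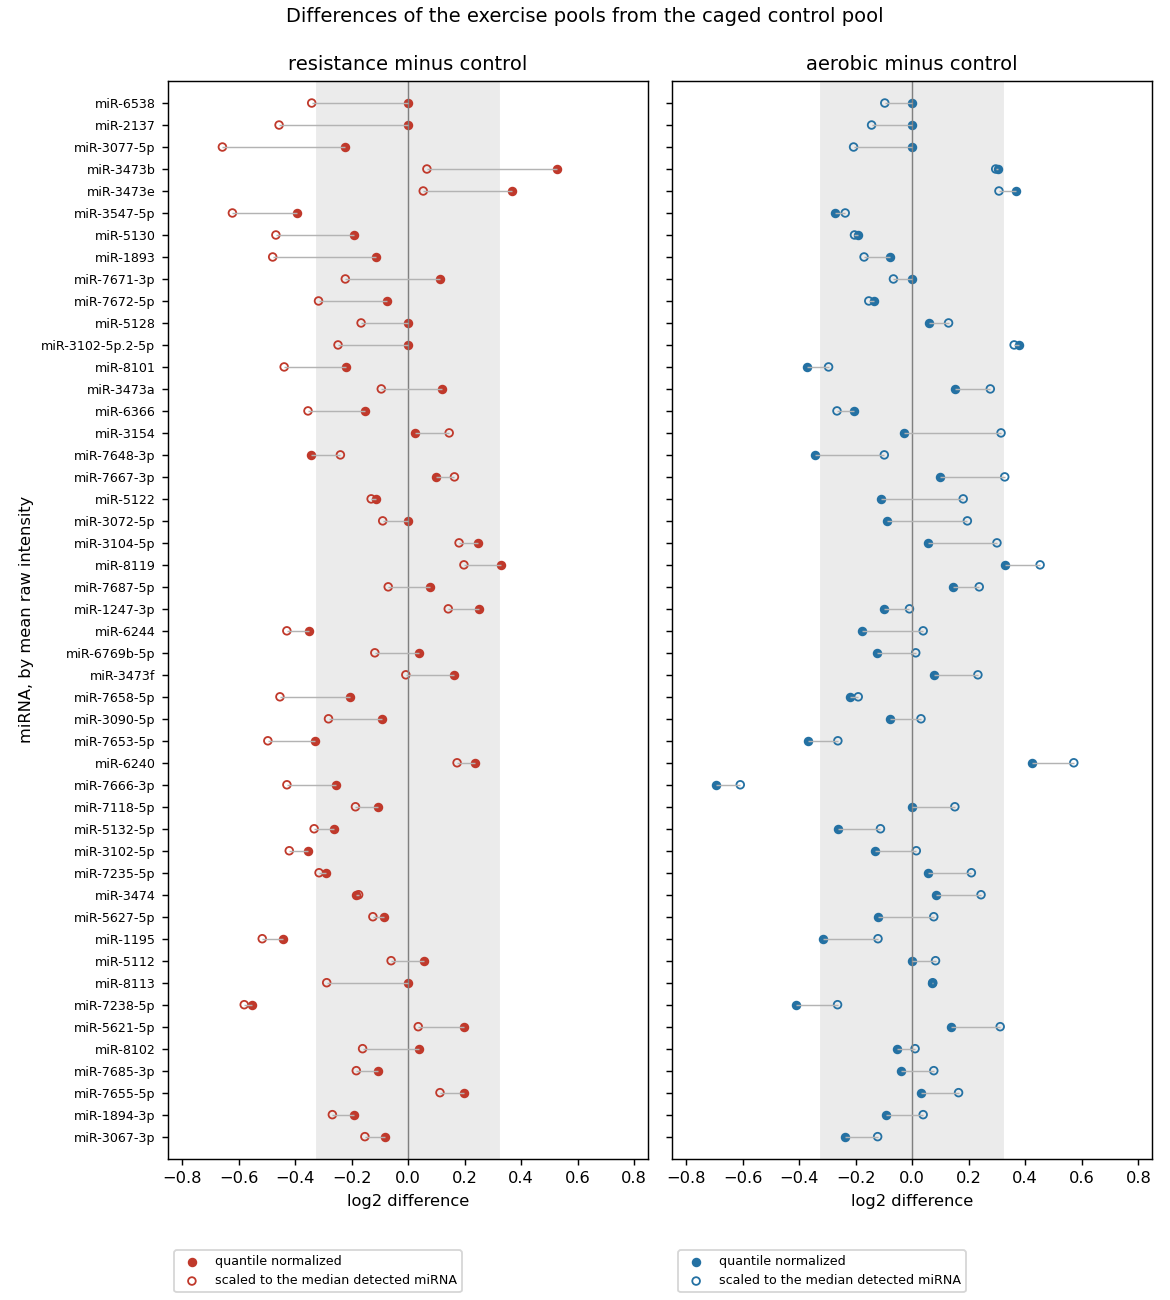
Log2 differences of the 48 miRNAs (rows, brightest at the top) from the control pool, for resistance on the left and aerobic on the right, each from 1 pair of arrays. Filled points are quantile normalized, open points are scaled to the median detected miRNA, and the grey band is the spot-scatter limit of 0.32 on either side of 0. The open points of resistance lie left of most filled ones, with 16 members below the band and 0 above it.

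Both exercise comparisons share the control array, so that values in common are not independent. By quantile values miR-8119 stood at 0.33 in resistance and 0.33 in aerobic plasma, and miR-3473e at 0.37 and 0.37. miR-7238-5p stood at -0.55 and -0.41, miR-7653-5p at -0.33 and -0.37, and miR-7648-3p at -0.34 and -0.34. The other member with the seed of miR-8119, miR-8113, stood at 0.00 in resistance and 0.07 in aerobic plasma, with raw values of 643 in resistance, 913 in aerobic and 749 in control plasma. A shared seed therefore did not go with a like difference in this pair. No member passed the limit upwards in one exercise pool and downwards in the other.

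The third comparison set resistance against aerobic exercise. The member that differed in all 9 settings was miR-3102-5p.2-5p, with raw intensities of 4001 in resistance and 6863 in aerobic plasma. Its log2 difference was -0.38 (-0.61 with median scaling). miR-3102-5p, from the neighbouring part of the same hairpin (chr7:100882388-100882409, minus strand, in Arhgef17), had 907 in resistance and 1364 in aerobic plasma, a difference of -0.22 (-0.43). Against control, miR-3102-5p.2-5p was higher after aerobic exercise and miR-3102-5p lower after resistance exercise. miR-7235-5p stood at -0.35 (-0.52) with 902 in resistance and 1440 in aerobic plasma, and passed in 8 of 9 settings.

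Higher in resistance than in aerobic plasma were miR-7666-3p at 0.44 (0.18), with 1135 against 1130, and miR-1247-3p at 0.35 (0.15), with 1941 against 1971. Their raw values were nearly level, and both differences were within spot scatter without scaling and with median or spike-in scaling. They passed it in the other 6 of 9 settings, among them the authors' normalization and shares of signal. Below them stood miR-3473b (0.22), miR-3104-5p (0.19) and miR-7655-5p (0.17). Lower within spot scatter were miR-3474 at -0.27, with 955 against 1421, and miR-3077-5p at -0.22. In counts 2 of 48 members (4.17%) were higher and 2 lower, against 1.91% and 1.30% of all 1307 miRNAs compared and 7.27% and 3.64% of other bright ones. With median scaling 0 were higher and 12 (25%) lower, against 0% and 36.4% of other bright miRNAs and 0.842% and 4.74% of all. With spike-in scaling 0 were higher and 30 (62.5%) lower, against 0% and 58.2% of other bright ones and 0.536% and 9.56% of all. Without scaling 0 were higher and 38 (79.2%) lower, against 0% and 78.2% of other bright ones and 0.459% and 18.7% of all. By the authors' normalization 2 were higher and 2 lower, against 5.45% and 3.64% of other bright ones and 11.9% and 16.3% of all. The members' median of 0.00 became -0.26 with median scaling, while that of other bright miRNAs became -0.25 and that of all miRNAs was -0.01. No member differed 2-fold, which 0.153% of all miRNAs did on the higher and 0% on the lower side.

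The 6 members with GAGAUG were then set beside the other 42. They had been grouped by sequence after their values had been seen, so this is a description. In resistance minus control their median was 0.14 (range 0.00 to 0.53), and that of the others -0.10. In aerobic minus control it was 0.12 (0.06 to 0.37), and that of the others -0.09. With median scaling the median of the 6 in resistance minus control was 0.02 (range -0.17 to 0.16), with 3 above 0, and that of the others -0.26. In aerobic minus control it was then 0.29, and that of the others 0.01. Without any scaling the 6 lay above the others by a median of 0.28 in resistance minus control and 0.27 in aerobic minus control. One factor per array, applied to these values, would move both sets alike and leave these gaps as they are. The sets overlapped, since single members among the other 42 reached 0.33 in resistance minus control and 0.42 in aerobic minus control by quantile values. In resistance minus aerobic both medians were 0.00. Values of 2 members of the 6 not given above were 4852 in resistance, 6707 in aerobic and 5242 in control plasma for miR-5128, and 2802, 3532 and 2414 in the same order for miR-7667-3p.

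Members near a gene start had lower medians against control than the farther ones. This grouping was not planned in advance. The 15 within 1000 bases had a median of -0.19 in resistance minus control, where 10 were below 0, and of -0.12 in aerobic minus control, where again 10 were. The 29 farther members had a median of 0.00 in both. With median scaling the medians were -0.32 near and -0.17 farther in resistance minus control, and -0.10 near and 0.13 farther in aerobic minus control. Without scaling they were -0.26 and -0.11 in resistance minus control. In aerobic minus control they were then 0.13 near, with 12 of 15 above 0, and 0.36 farther. The sign of the near median thus depended on the scaling. All 3 members beyond spot scatter on the lower side in both exercise pools, namely miR-7238-5p, miR-7648-3p and miR-7653-5p, were among the 15. miR-8119 in Lck, 597 bases from a start, was also among them and stood higher. Other bright miRNAs were ordered likewise, with medians in aerobic minus control of -0.08 for 8 near and 0.11 for 36 farther ones, so this is not particular to the members. The near members also had more GC, at a median of 72.0% against 68.2% for the farther ones.

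GC content itself ran against the differences. Over the 44 matched members, without scaling, Pearson's r of GC content with the difference was -0.35 for resistance minus control and -0.40 for aerobic minus control, and Spearman's rho was -0.31 and -0.40. For resistance minus aerobic r was 0.03. These are correlations across probes of the same arrays that share the control array, and probes are not replicates. The 44 matched other bright miRNAs had r of -0.44 and -0.44. By quantile values the members' r was weaker, at -0.27 for resistance minus control and -0.30 for aerobic minus control. GC content also went with log2 raw intensity of the matched members, with r of 0.42 in resistance, 0.41 in aerobic and 0.46 in control plasma. The 22 members richest in GC had a median of 0.13 in aerobic minus control without scaling, against 0.33 for the other 22. GC content and distance to a gene start moved together with the differences, and the part of each, or of brightness, was not tested.

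**Figure D4:**
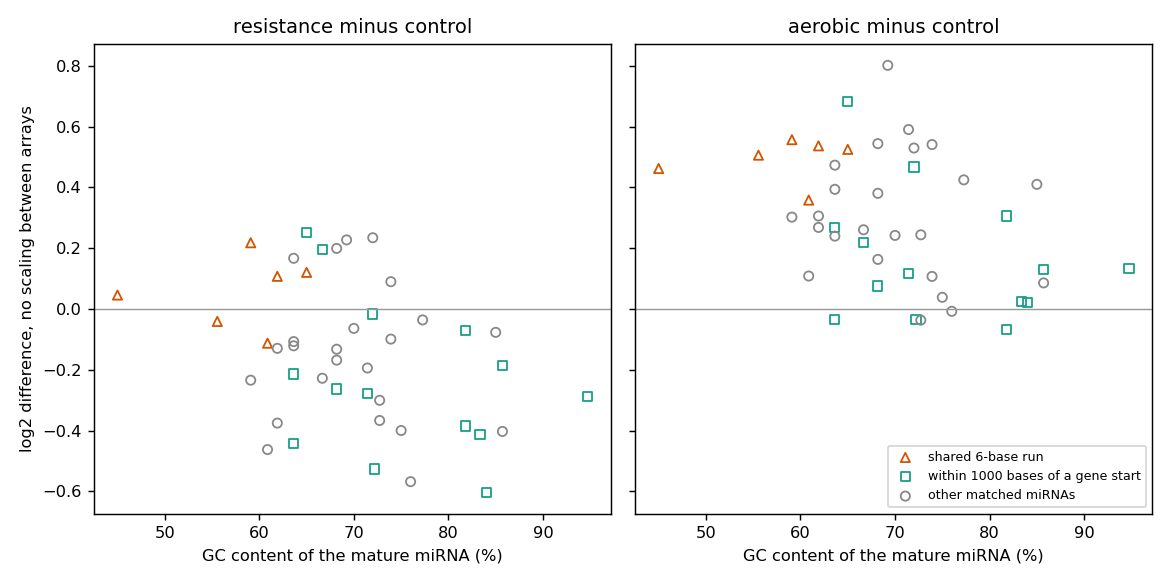
GC content of the mature miRNA (horizontal axis) against the log2 difference from control without scaling (vertical axis) for the 44 matched members, resistance on the left and aerobic on the right. Triangles are the 6 members with GAGAUG, squares other members within 1000 bases of a gene start, circles the rest. In the aerobic panel the triangles lie between 0.36 and 0.56.

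A pair of members belong to the imprinted Dlk1-Dio3 region, a domain rich in miRNAs on mouse chromosome 12. miR-3072-5p, in the long noncoding RNA Mirg (chr12:109747893-109747914, plus strand), had 2243 in resistance, 3071 in aerobic and 2299 in control plasma. miR-1247-3p, in Dio3os (chr12:110278058-110278078, minus strand), had 1941, 1971 and 1699 in the same order.

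The remaining members stayed within spot scatter by quantile values in all 3 comparisons. With median scaling miR-7658-5p (-0.45), miR-6366 (-0.35) and miR-5132-5p (-0.33) passed it on the lower side in resistance minus control. In resistance minus aerobic miR-7118-5p (-0.34) did so. miR-6366 and miR-3154 were the brightest of these not yet given, with 3988 and 3601 in resistance, 4778 and 4560 in aerobic, and 4903 and 3141 in control plasma. miR-3154 lay in Dnm1, the gene of a dynamin, on the opposite strand. miR-5122 had 2519 in resistance, 3513 in aerobic and 2654 in control plasma. Above a raw intensity of 1000 on the aerobic array lay miR-7687-5p, miR-6769b-5p, miR-3090-5p, miR-7658-5p, miR-7118-5p, miR-5132-5p and miR-5627-5p. Below 1000 there were miR-5112, miR-5621-5p, miR-8102, miR-7685-3p, miR-7655-5p, miR-1894-3p and miR-3067-3p. By name 19 members were 5p arms, 8 were 3p arms and 21 carried no arm, and no hairpin had both its arms among the members.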

How the data were processed

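Per the file headers, the authors deposited raw spot intensity, background-subtracted intensity and globally normalized intensity of 3 single-colour arrays, 1 per group, and a series table of the normalized intensity with a median of 25. The scanner and its software are unknown here. The background was the mean of 806 blank spots left after trimming 5% at each end, and spots above it by 2 SD counted as detected. Raw intensity was corrected with normexp (limma 3.58.1, R 4.3.3, offset 50), and the 1900 miRNA probes were quantile normalized on the log2 scale. Spike-in spots gave the spot scatter. The steps were tested on simulated data. Shares are background-subtracted intensity over that of all detected miRNAs. The number of arrays limits the precision. The members, lists and settings were chosen with earlier results of these data known. Members named with values were the 10 brightest, the 5 highest and 5 lowest per comparison, those beyond spot scatter in both exercise pools, those sharing a seed or hairpin and those at the limit. The rest, the GAGAUG set among them, were named after their values were seen. Alternatives were other offsets, scalings, brightness limits and scatter measures, the authors' normalization and, added after seeing the data, shares of the signal.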

Additional observations from a re-analysis of the deposited data

How the results depend on the processing

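No paired analysis was possible because each group has 1 array, and for the same reason no array could be left out. An offset of 0 and blank subtraction moved no median or count past its margin, while single-factor scaling did. In resistance minus control the 3 higher and 7 lower members became 0 and 13 without scaling, 0 and 16 with median or spike-in scaling, 0 and 21 by the authors' normalization (median -0.25), 5 higher with cyclic loess (other bright miRNAs 23.6%), and 6 and 12 with the dimmer S-Probe spots as scatter (other bright 20.0% and 25.5%). Of all 1336 miRNAs compared, 6.51% were higher with cyclic loess, and 8.38% were higher and 7.19% lower with S-Probe spots. The S-Probe spots had raw values of 85.1 to 145.9, below every member. Of the 7 lower members 6 were also lower with median scaling. In aerobic minus control the 4 higher and 5 lower became 19 and 1 without scaling (median 0.27), 13 and 1 with spike-in scaling (median 0.14), 1 lower with median scaling, 1 and 17 by the authors' normalization, 2 higher with cyclic loess or with shares of signal (other bright 16.4% and 20.0%), and 10 lower with S-Probe spots (other bright 16.4%). In resistance minus aerobic the 2 higher and 2 lower became 0 and 38 (79.2%) without scaling (median -0.44, with 78.2% of other bright miRNAs and 18.7% of all lower), 0 and 12 with median scaling (median -0.26), 0 and 30 with spike-in scaling (median -0.35), 1 lower with cyclic loess (other bright 1.82%) and 5 lower with S-Probe spots (other bright 10.9%). Of all 1321 miRNAs in aerobic minus control, 4.16% were higher with cyclic loess, 24.3% higher with shares and 5.37% lower with S-Probe spots. Of all 1307 in resistance minus aerobic, 0.918% were lower with cyclic loess and 4.13% with S-Probe spots. A raw limit of 1000 left 32 members, with 4 lower in resistance minus control and 1 lower in resistance minus aerobic. A limit of 250 gave 88, with 5 higher and 12 lower in resistance minus control. In aerobic minus control 7 of these were higher and 9 lower, and in resistance minus aerobic 5 were higher. The shares of all miRNAs do not depend on this limit. By quantile values 5.61% were higher and 3.22% lower in resistance minus control, and 3.79% and 2.04% in aerobic minus control. For resistance minus aerobic these were 1.91% and 1.30%. Shares became 28.0%, 30.4% and 30.7% for resistance, aerobic and control without background subtraction, and 50.2%, 51.2% and 53.4% without the 8 left-out numbers in the total. Of 23 differences of named members beyond spot scatter, 2 turned sign: miR-7648-3p in aerobic minus control went to 0.13 without scaling and 0.0012 with spike-in scaling, and miR-1247-3p in resistance minus aerobic to -0.024 without scaling. Of 70 within spot scatter 22 turned sign in some setting, such as miR-3473a in resistance minus control (0.12, but -0.09 with median scaling), miR-7671-3p in the same comparison (0.11, but -0.22) and miR-1195 in aerobic minus control (-0.31, but 0.11 without scaling). The members lay at 521 or more, against blank means between 92 and 93.3.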

Other observations

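Outside the members, 12 further chip miRNAs carried GAGAUG, and miR-711 was the brightest of them, with raw intensities of 3229 in resistance, 3967 in aerobic and 2646 in control plasma. Its log2 difference from control was 0.17 in each exercise pool. The next, miR-193b-5p, had 410 in resistance, 519 in aerobic and 384 in control plasma. Of the 12, 5 stood above control and 7 below it in resistance minus control (median -0.01, range -0.14 to 0.34), and 6 above and 6 below in aerobic minus control (median 0.00, range -0.21 to 0.19). One of them, miR-741-3p, was not detected on any array. Of the 13 probes in the number range that passed raw intensity 500 on 1 or 2 arrays, 3 did so on the resistance, 11 on the aerobic and 6 on the control array.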
